A study of Mus musculus with 28 samples.

Results

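The genes described here are a set that tissue macrophages express together: *Fcgr1*, *Fcgr3* and *Fcgr4*, which encode activating receptors for the Fc part of IgG, *Fcer1g* and *Tyrobp*, which encode the small signalling adaptors of such receptors, *C1qa*, *C1qb* and *C1qc*, which encode the chains of complement component C1q, *Csf1r*, which encodes the receptor of the macrophage growth factor CSF-1, and *Adgre1*, which encodes the surface protein F4/80. They were chosen by symbol, and both they and the gene lists below were chosen with earlier results of these data known. Counts of these genes beside the share of all tested genes are therefore descriptive and give no independent support. Each of the 10 symbols matched 1 of the 49585 features of the count table, and 10 of 10 were among the 21583 expressed genes. RNA was measured in whole livers of C57BL/6JOlaHsd mice labelled 5 to 7 months old and kept on standard chow, in 4 groups of 7 mice. According to the methods, the mice had fasted for some hours before the livers were taken, so these are not livers of fed mice. Each sex had 1 wild-type (WT) and 1 SIRT6-tg group, and the SIRT6-tg mice carry a transgene for *Sirt6*, a nuclear deacylase, and come from a single transgenic line. The promoter of that transgene is not given in the sources used here, and the labels do not say whether replicates with the same number share a litter or a day.

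Receptors for IgG let macrophages take up antibody-coated particles. The activating ones cannot signal alone: they need the common γ chain encoded by *Fcer1g*, whose ITAM, a short tyrosine motif, recruits the kinase SYK when the receptor is crosslinked. *Tyrobp* encodes DAP12, which does the same for receptors such as TREM2. C1q is the recognition part of the first complement component. Its chains come mostly from macrophages, while the proteases C1r and C1s that it binds come mostly from hepatocytes. In the liver the resident macrophages are the Kupffer cells, which line the sinusoids and clear particles from portal blood, and monocytes from the circulation express most of the same genes.

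Total counts per library lay between 18758863 and 35393069. The TMM normalisation factors of male WT libraries (1.06 to 1.17) lay above those of male SIRT6-tg libraries (0.821 to 0.993), and those of females ran from 0.906 to 1.06. Normalised counts below are TMM-scaled to a common depth, and fold changes are log2 ratios of SIRT6-tg to WT from a quasi-likelihood fit of edgeR to the 28 libraries together, each given with its SE (standard error). P-values were adjusted by Benjamini-Hochberg over the 21583 genes, and an adjusted p under 0.05 counted as different. *Sirt6* itself had 44.8 to 85.9 normalised counts in male WT and 5263 to 9517 in male SIRT6-tg mice, and 47.9 to 165 in female WT and 434 to 1335 in female SIRT6-tg mice, so the labels and the transgene match in all 28 libraries. One library stood low for the genes described here: male WT replicate 1 had the lowest normalised count of its group for 10 of 10 genes. At the other end, female SIRT6-tg replicate 1 had the highest count of its group for 9 of 10. Each library was kept, and results that rest on these 2 are also given without them.

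Males that carried the transgene had less RNA of every one of the 10 genes. All 10 were lower in male SIRT6-tg than in male WT mice, by 1.99-fold for *Csf1r* to 3.59-fold for *Fcgr4*, against a background of 11% of all tested genes called lower in the same comparison. The median log2 fold change of the 10 was −1.21, beside 0.06 over all tested genes. In females 0 of the 10 passed by edgeR, beside 0.00463% of all tested genes called lower, and 0 passed by DESeq2. Their log2 fold changes lay between −0.42 and −0.17, none had an unadjusted p under 0.05 (beside 3.14% of all tested genes), and none had ranges that did not overlap (beside 0.0417%). Because whole tissue was measured, fewer cells that express these genes and less RNA per such cell cannot be told apart. Nor can the cell types in which the falls occurred.

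*Fcgr4* (ENSMUSG00000059089.4, chromosome 1 of GRCm38, 171018920 to 171029761, plus strand) encodes a receptor that binds IgG2 subclasses. Its normalised count had a lowest value of 192, a median of 392 and a highest value of 757 in male WT mice, and 96.1, 130 and 182 in male SIRT6-tg mice. Every transgenic male was below every WT male. The log2 fold change was −1.85 (SE 0.29, adjusted p = 2.93e-05), the largest fall among the 10 genes. In females the lowest, median and highest counts were 169, 303 and 426 in WT and 113, 193 and 391 in SIRT6-tg mice. These ranges overlapped almost fully, with a log2 fold change of −0.31 and a 95% confidence interval of −0.89 to 0.27.

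*Fcgr1* (ENSMUSG00000015947.10, chromosome 3, 96282909 to 96293969, minus strand) encodes CD64, the high-affinity IgG receptor. In male WT mice its lowest, median and highest normalised counts were 122, 221 and 371, and in male SIRT6-tg mice 65.2, 84.6 and 133. In 6 of 7 male SIRT6-tg mice the count was below that of every male WT mouse, and the log2 fold change was −1.33 (SE 0.23, adjusted p = 8.30e-05). *Fcgr1* ran from 122 to 226 in female WT and from 75.6 to 219 in female SIRT6-tg mice. The female groups overlapped, with a log2 fold change of −0.25 (95% confidence interval −0.72 to 0.21).

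*Fcgr3* (ENSMUSG00000059498.13, chromosome 1, 171051174 to 171064935, minus strand) encodes CD16, a low-affinity IgG receptor. It spanned 146 to 656 normalised counts in male WT mice with a median of 343, and 151 to 255 in male SIRT6-tg mice with a median of 166. No male SIRT6-tg mouse lay below the lowest male WT mouse, replicate 1, and the other 6 male WT mice lay above 255. The log2 fold change of −1.17 (SE 0.23, adjusted p = 3.96e-04) therefore comes with overlapping ranges. Of the 50-base stretches of *Fcgr3* exons, 9.58% also occur in *Fcgr2b*, so reads from there cannot be assigned to 1 gene with certainty. In females *Fcgr3* had a log2 fold change of −0.27 (95% confidence interval −0.74 to 0.19).

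*Fcer1g* (ENSMUSG00000058715.11, chromosome 1, 171229572 to 171234365, minus strand) had the lowest adjusted p of the 10. Its lowest, median and highest normalised counts were 321, 551 and 888 in male WT mice and 182, 231 and 299 in male SIRT6-tg mice. The male groups did not overlap, as was the case for 2 of the 10 genes, *Fcgr4* and *Fcer1g*, and for 4.37% of all tested genes in this direction. Its log2 fold change was −1.36 (SE 0.20, adjusted p = 9.16e-06). In females the counts were 257 to 502 in WT and 245 to 451 in SIRT6-tg mice, which is nearly the same range, and the log2 fold change was −0.17 (95% confidence interval −0.58 to 0.24).

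*Tyrobp* (ENSMUSG00000030579.10, chromosome 7, 30413760 to 30417585, plus strand) varied more among male WT mice than *Fcer1g* did. The lowest, median and highest counts were 354, 728 and 1447 in male WT mice and 227, 325 and 585 in male SIRT6-tg mice. Of the male SIRT6-tg mice, 4 of 7 lay below every male WT mouse. The log2 fold change of *Tyrobp* was −1.15 (SE 0.28, adjusted p = 0.00425), and in females it was −0.26 (95% confidence interval −0.83 to 0.32).

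The C1q genes lie side by side on the minus strand of chromosome 4, *C1qb* (ENSMUSG00000036905.8) at 136880129 to 136886187, *C1qc* (ENSMUSG00000036896.5) at 136889804 to 136893065 and *C1qa* (ENSMUSG00000036887.5) at 136895917 to 136898803. For *C1qa* the lowest, median and highest normalised counts were 1632, 3427 and 6835 in male WT mice and 1083, 1361 and 2447 in male SIRT6-tg mice. *C1qb* had 1458, 2822 and 4901 in male WT and 1032, 1135 and 1841 in male SIRT6-tg mice, and *C1qc* had 1357, 2850 and 5675 against 1006, 1214 and 1867. For each chain the ranges overlapped and 5 of 7 transgenic males were below the lowest WT male. The log2 fold changes were nearly the same, −1.20 for *C1qa* (SE 0.30, adjusted p = 0.00418), −1.22 for *C1qb* (SE 0.25, adjusted p = 5.47e-04) and −1.20 for *C1qc* (SE 0.28, adjusted p = 0.00212). Male WT replicate 6 carried the highest count of all 28 mice for each of the 3 chains. Without that mouse, all 10 genes still passed, and the log2 fold change of *C1qa* was −0.95.

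Among female SIRT6-tg mice a single one stood high for C1q. *C1qa* had 3000 normalised counts in female SIRT6-tg replicate 1, while the next mouse of its group had 1410, and the female WT mice ran from 1261 to 3438. The log2 fold changes in females were −0.42 for *C1qa*, −0.35 for *C1qb* and −0.33 for *C1qc*, and the confidence interval of *C1qa* was −1.02 to 0.18. Leaving out female SIRT6-tg replicate 1 gave the 10 genes a median log2 fold change of −0.45 in females, in place of −0.27, and still 0 of 10 passed, with adjusted p between 0.654 and 0.880.

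*Csf1r* (ENSMUSG00000024621.15, chromosome 18, 61100598 to 61132149, plus strand) transmits the survival signal of CSF-1 and IL-34 to macrophages. Its lowest, median and highest normalised counts were 1319, 2636 and 4528 in male WT mice and 1122, 1265 and 1881 in male SIRT6-tg mice. Its fall in males was the smallest of the 10, with a log2 fold change of −0.996 (SE 0.20, adjusted p = 5.70e-04), and 4 of 7 transgenic males were below the lowest WT male. Over 15.1% of its exon length *Csf1r* overlaps *Hmgxb3* on the opposite strand, and the strand setting of the counting is not given in the sources used here. *Hmgxb3* had median counts of 272 in male WT and 269 in male SIRT6-tg mice and did not pass (log2 fold change 0.04). In females *Csf1r* had a log2 fold change of −0.26 (95% confidence interval −0.68 to 0.15).

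*Adgre1* (ENSMUSG00000004730.14, chromosome 17, 57358691 to 57483527, plus strand) is the gene of the F4/80 antigen by which mouse macrophages are commonly stained. Counts ran from 515 to 1959 with a median of 1192 in male WT mice, and in male SIRT6-tg mice from 325 to 707 with a median of 459. Replicate 6 of the male SIRT6-tg mice was the one that overlapped the WT range, and the other 6 lay below all WT mice. The log2 fold change was −1.28 (SE 0.26, adjusted p = 5.10e-04) in males and −0.17 (95% confidence interval −0.69 to 0.35) in females.

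**Figure D1:**
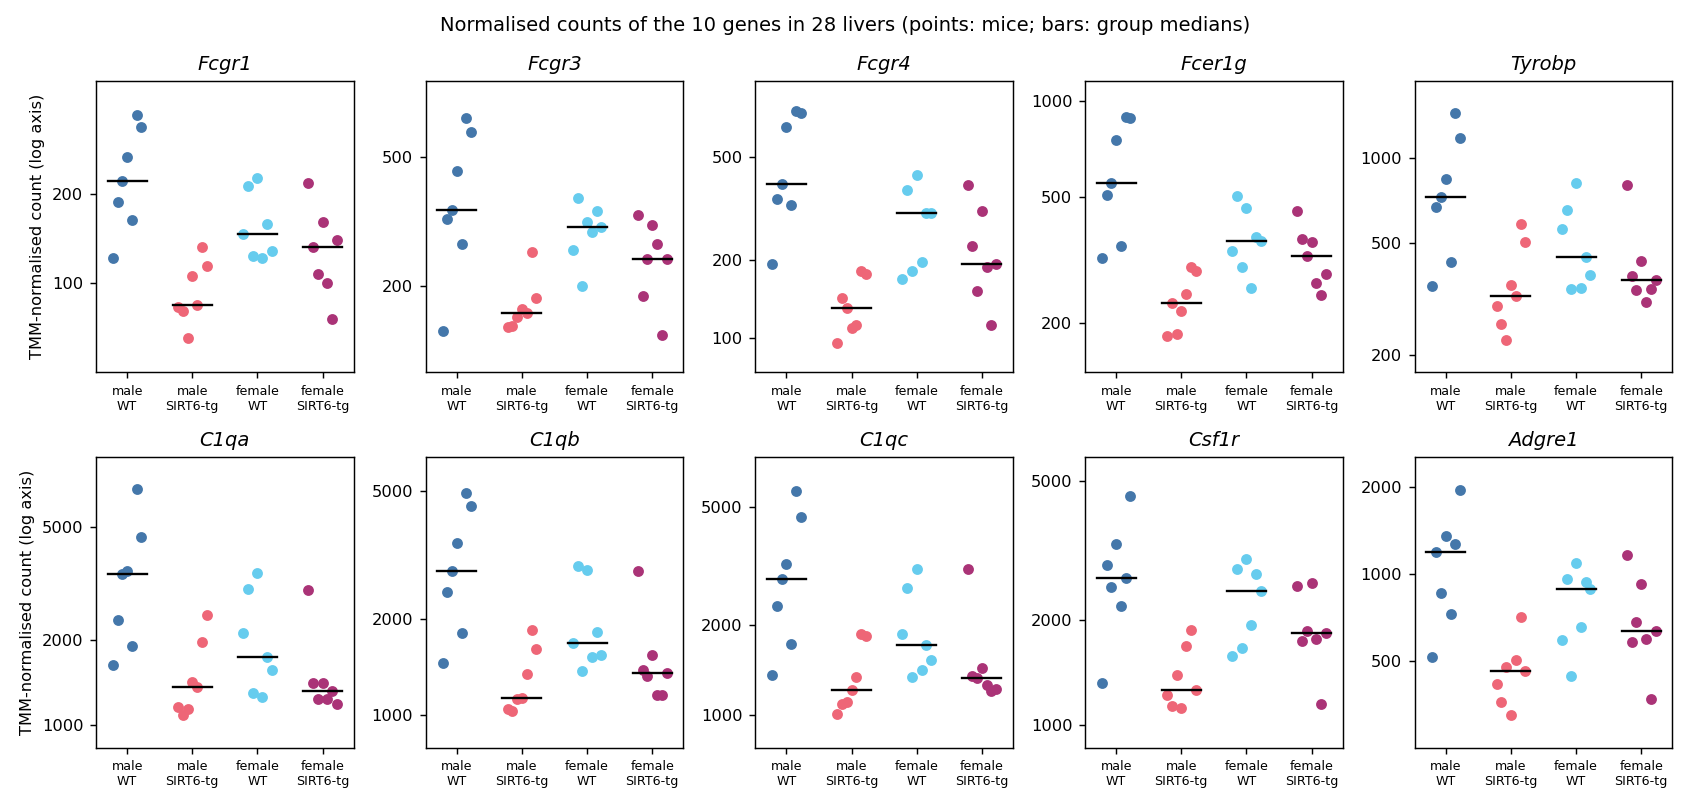
TMM-normalised counts (log axis) of the 10 genes, with 1 point per mouse in replicate order within each of the 4 groups of 7 and a bar at the group median. Male SIRT6-tg medians are the lowest of the male groups in every panel, for *Fcgr4* 130 against 392, and male WT replicate 1, the leftmost point, is the lowest of its group for all 10 genes.

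The spread between mice of a group was wide and shared by the genes. The coefficient of variation in male WT mice ran from 36% for *Csf1r* to 52.3% for *C1qa*, and in male SIRT6-tg mice from 19.8% for *Fcer1g* to 36.2% for *Tyrobp*. Over the 28 libraries Pearson's r between pairs of the 10 genes on the log2 scale lay between 0.69 (*Csf1r* and *C1qa*) and 0.99 (*C1qb* and *C1qc*), with a median of 0.90. With group means removed the median was 0.84 and the range 0.57 to 0.98. These values describe 45 pairs measured in the same libraries, which share depth and composition.

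With male WT replicate 1 left out, ranges of male WT and male SIRT6-tg mice no longer overlapped for 6 of the 10 genes, beside 5.31% of all tested genes, and the median log2 fold change of the 10 was −1.37. Without male SIRT6-tg replicate 6, the highest of its group for 9 of 10 genes, 4 of the 10 did not overlap, beside 5.02% of all tested genes. All 10 genes passed in males without any 1 of the 28 libraries and in every other setting tried, with an adjusted p of at most 0.0156. Scaled by library size alone, which moves the median log2 fold change of all tested genes in males from 0.06 to −0.22, the 10 genes lay between −2.15 and −1.28. Their median was then −1.52.

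**Figure D2:**
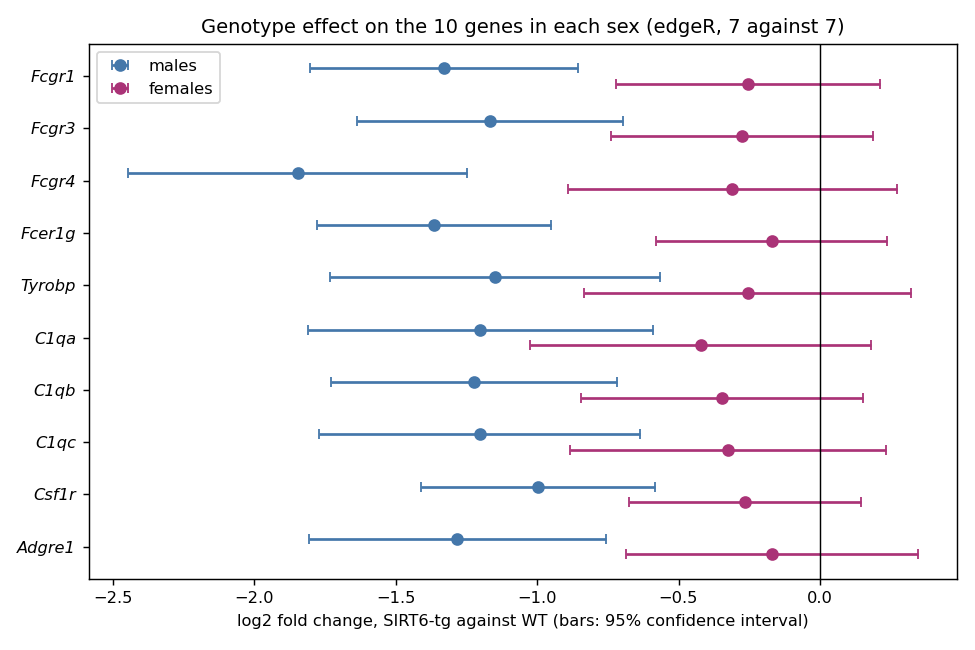
Log2 fold change of SIRT6-tg against WT mice for the 10 genes in males and in females, with 95% confidence intervals from edgeR (7 against 7 mice). All male intervals lie below 0, the closest being *Tyrobp* at −0.56, and all female intervals include 0.

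Whether the genotype effect differed between the sexes was tested directly. The male effect exceeded the female one in the downward direction for 3 of the 10 genes, beside 3.84% of all tested genes, and 9 of the 10 had an unadjusted p under 0.05 beside 10.2%. These were *Fcgr4* (difference −1.54, SE 0.40, adjusted p = 0.0229), *Fcer1g* (−1.19, SE 0.28, adjusted p = 0.0101) and *Fcgr1* (−1.08, SE 0.32, adjusted p = 0.0475). *Fcgr4* and *Fcer1g* passed without any 1 library, while *Fcgr1* no longer passed in 18 of 28 such fits. The other 7 genes had differences between −1.11 (*Adgre1*, adjusted p = 0.0701) and −0.73 (*Csf1r*, adjusted p = 0.144). For *C1qa* the difference was −0.78 with a confidence interval of −1.63 to 0.07. Without male WT replicate 1, 6 of the 10 passed, *Fcgr3*, *Csf1r* and *Adgre1* joining the 3, beside 4.64% of all tested genes. By library size alone 7 of the 10 did, but the share of all tested genes rose too, to 8.51%. The transgene's RNA also differed between the sexes, being 9.79-fold more increased over WT in males, so the sexes cannot be compared at matched *Sirt6* levels.

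The WT groups were compared between the sexes, since they are the base from which each fall is measured. *Fcer1g* was 1.64-fold higher in male WT mice (log2 fold change 0.71, SE 0.20, adjusted p = 0.0151), with 5 of 7 males above all females. It was the 1 gene of the 10 that passed, beside 6.65% of all tested genes called higher. The log2 differences of the other 9 lay between 0.26 (*Csf1r*) and 0.80 (*Fcgr4*, adjusted p = 0.0589), and 7 of the 10 had an unadjusted p under 0.05, beside 13% of all tested genes in that direction. This count depended on single mice. It was 8 of 10 without male WT replicate 1 (beside 7.4% of all tested genes), 6 of 10 without female WT replicate 4 (7.19%) and 4 of 10 by DESeq2 (8.63%). It was 3 without male WT replicate 5, female WT replicate 2 or female SIRT6-tg replicate 1, and 2 without male WT replicate 2 or female SIRT6-tg replicate 6, with 6.81% to 7.6% of all tested genes called higher in these 5 fits.

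To compare levels between genes, normalised counts were divided by exon length, giving CPM per kilobase. In male WT mice *C1qa* stood at 126 ± 65.7 (SD, n = 7), *C1qb* at 105 ± 45.0 and *C1qc* at 60.6 ± 30.4. The adaptors came next, *Tyrobp* at 45.6 ± 22.1 and *Fcer1g* at 26.1 ± 10.2, followed by *Csf1r* at 18.03 ± 6.48. The receptors were lowest, *Fcgr4* at 14.6 ± 6.76, *Adgre1* at 13.1 ± 5.57, *Fcgr3* at 8.62 ± 3.92 and *Fcgr1* at 3.47 ± 1.33. The mean of the shared adaptor *Fcer1g* stood above that of each IgG receptor, while its range overlapped those of *Fcgr4* and *Fcgr3*. Ranked by this level among the 21583 expressed genes of male WT liver, *C1qa* was at place 311 and *Fcgr1* at place 6150.

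The order of the 10 levels was the same in the other groups but for *Adgre1*, which stood above *Fcgr4* in male SIRT6-tg (5.39 against 4.07), female WT (9.25 against 8.36) and female SIRT6-tg mice (8.21 against 6.74). Neighbours in the order overlapped in every group, except that *Fcgr3* stood clear above *Fcgr1* in male SIRT6-tg and in female WT mice. The shares of the 3 C1q chains varied little between mice. *C1qa* made up 42.7% ± 2.496 (SD, n = 7) of their summed level per length in male WT and 42.9% ± 3.22 in male SIRT6-tg mice, and *C1qc* made up 20.6% ± 0.778 and 20.9% ± 0.757.

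**Figure D3:**
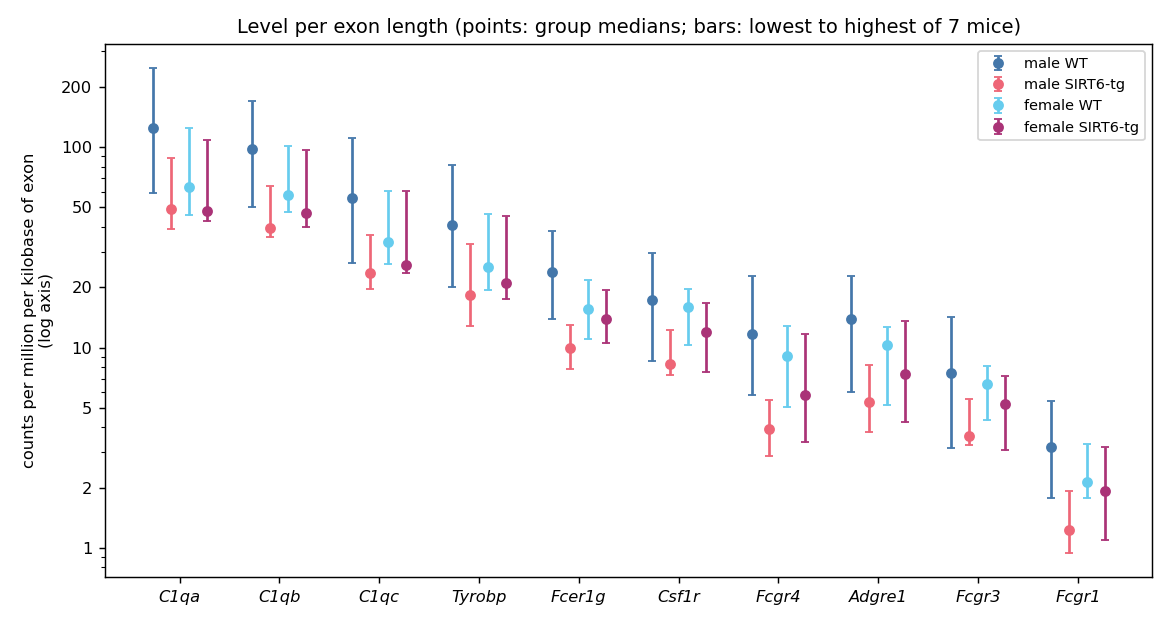
Level per exon length (CPM per kilobase, log axis) of the 10 genes, ordered by the mean in male WT mice, with points at the group medians and bars from the lowest to the highest of 7 mice. The C1q chains are highest and *Fcgr1* is lowest in all 4 groups.

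Ratios between genes within a mouse show whether the members moved by unequal amounts, and do not depend on how libraries are scaled. For 14 pairs the log2 ratio was compared between genotypes within each sex by an exact two-sided permutation test of 7 against 7 mice, whose smallest possible p is 0.000583, with adjustment over the 28 tests. The receptor genes parted: the ratio of *Fcgr4* to *Fcgr3* was 0.29 ± 0.14 (SD, n = 7) in male WT and −0.39 ± 0.25 in male SIRT6-tg mice. The genotypes did not overlap in males, with a difference of −0.68 (exact permutation p = 0.000583, adjusted p = 0.0163). *Fcgr4* also fell relative to *Fcer1g* by −0.44, which did not pass after adjustment (exact p = 0.00699, adjusted p = 0.0625).

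The ratio of *Csf1r* to *Ptprc*, the gene of the pan-leukocyte protein CD45, went the other way. It was 1.39 ± 0.32 in male WT and 2.12 ± 0.29 in male SIRT6-tg mice (SD, n = 7 each), so *Csf1r* fell less than *Ptprc*, by 0.73 (exact permutation p = 0.00233, adjusted p = 0.0326). Of the male SIRT6-tg mice, 6 of 7 lay above all male WT mice. This adjusted p was 0.0571 at the highest when 1 mouse was left out. The loss of the call occurred without male WT replicate 2, 3 or 4 and without male SIRT6-tg replicate 1, 4, 5 or 6. The ratios of *C1qb* and *Fcer1g* to *Ptprc* differed in the same direction, by 0.53 and 0.39, with an adjusted p of 0.0625 for both by the exact test.

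No change in the proportions of the C1q chains was detected. The log2 ratio of *C1qa* to *C1qb* differed between male genotypes by 0.03 ± 0.11 (SE) and that of *C1qc* to *C1qb* by 0.05 ± 0.05, and neither passed the exact test (adjusted p = 0.897 and 0.697). *Fcgr1* and *Fcer1g* differed by 0.03 ± 0.09 (exact adjusted p = 0.897). In females 0 of the 14 pairs passed, and 0 had an unadjusted exact p under 0.05, with differences between −0.17 and 0.11.

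Further pairs, 4 in all, were added after the values were seen and adjusted as a family of 8 tests. The direction of each male difference was thus known beforehand, so these p-values are descriptive and give no independent support. The ratio of the activating *Fcgr3* to *Fcgr2b*, the gene of the inhibitory IgG receptor, was lower in male SIRT6-tg mice by 0.97 on the log2 scale (exact permutation p = 0.00408, adjusted p = 0.0163). That of *C1qb* to *C1s1*, a protease gene of the same first complement component, was lower by 1.13 (exact p = 0.00641, adjusted p = 0.0171). Relative to *Clec4f*, a Kupffer cell gene, *Fcer1g* was lower by 0.75 with no overlap (exact p = 0.000583, adjusted p = 0.00466) and *Csf1r* by 0.41 (exact p = 0.0111, adjusted p = 0.0221). *Clec4f* itself had a log2 fold change of −0.55 in males. The 8 Kupffer cell markers ran from −3.29 to 0.02 with a median of −0.92, so these differences depend on the marker chosen. In females none of the 4 added pairs passed, the largest difference being −0.37 for *Fcgr3* to *Fcgr2b* (exact p = 0.0524, adjusted p = 0.0839).

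**Figure D4:**
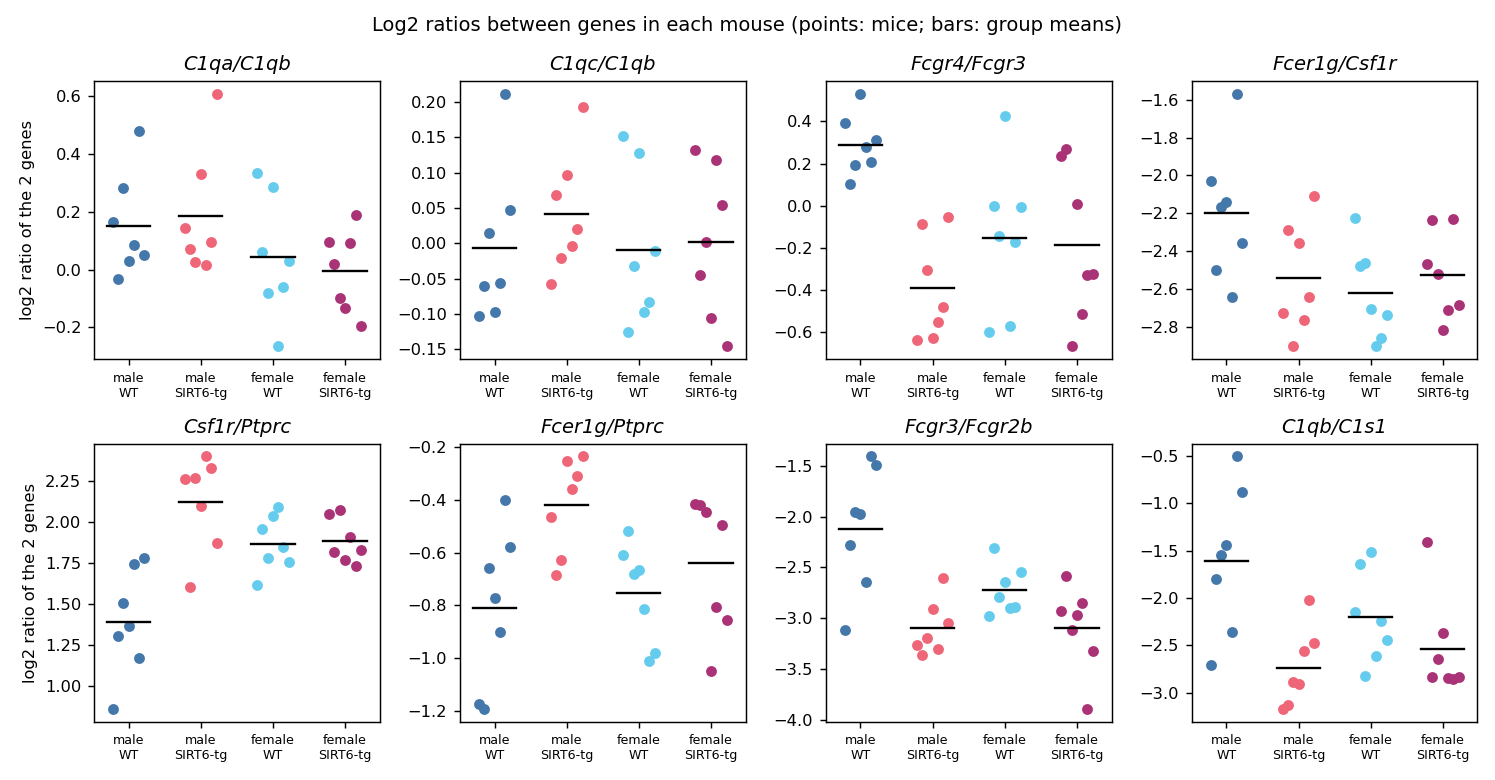
Log2 ratios between genes in each mouse (points, in replicate order) with group means (bars), for 8 of the 18 pairs compared, including *Fcgr3*/*Fcgr2b* and *C1qb*/*C1s1*, which were added after the values were seen. *Fcgr4*/*Fcgr3* separates the male genotypes fully, from 0.29 to −0.39 on average, and the C1q chain ratios overlap between genotypes.

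Most genes listed for signalling downstream of the activating receptors were also lower in males. Of 17 genes of Fc receptor and ITAM signalling, 15 were lower in male SIRT6-tg mice and none was higher, beside 11% of all tested genes called lower. Their median log2 fold change was −1.30, beside 0.06 over all genes and −1.49 for the 3 genes of all leukocytes listed below. Whether the falls are particular to cells that carry these receptors was not tested. Those with the lowest adjusted p were *Inpp5d* (log2 fold change −1.31, adjusted p = 3.37e-07), the gene of the phosphatase SHIP1, *Ncf1* (−1.39, adjusted p = 3.83e-07), of the phagocyte oxidase, and *Syk* (−1.28, adjusted p = 6.08e-07). The exceptions were *Blnk* (−0.41, adjusted p = 0.392) and *Fcgr2b* (−0.07, adjusted p = 0.771). *Fcgr2b* had 1585 ± 200 normalised counts (SD, n = 7) in male WT and 1510 ± 116 in male SIRT6-tg mice. Sinusoidal endothelium, besides macrophages, is known to express *Fcgr2b*, and whether this bears on its value was not tested.

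Among 9 receptors that pair with the *Tyrobp* product, 6 were lower and none higher in male SIRT6-tg mice, beside 11% of all tested genes called lower. *Cd300lb* (−1.81, adjusted p = 1.38e-05), *Sirpb1a* (−2.23, adjusted p = 4.64e-05) and *Clec5a* (−2.15, adjusted p = 1.92e-04) had the lowest adjusted p, and *Pilrb1*, *Pilrb2* and *Siglech* did not pass, with log2 fold changes between −0.67 and −0.61. *Sirpb1a* and *Clec5a* were near 19 normalised counts in male WT mice and near 4 in male SIRT6-tg mice, so their values rest on few reads.

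The rest of the classical complement pathway gave no call. By edgeR 0 of 9 genes passed in males, beside 11% of all tested genes called lower and 9.68% called higher. Of the 9, 0 had an unadjusted p under 0.05, and their median log2 fold change was −0.02. The protease genes *C1ra* and *C1s1* were at −0.02 and −0.00306, and *C3* at −0.17 (adjusted p = 0.506). Receptors for complement and C1q divided, with 7 of 11 lower and none higher, beside the same 11% called lower. *Itgax* (−3.09, adjusted p = 5.16e-09), *Itgb2* (−1.86, adjusted p = 7.75e-07), which encode integrin chains of complement receptors, and *C3ar1* (−1.47, adjusted p = 9.74e-07) had the lowest adjusted p. *Lrp1*, *Calr*, *Scarf1* and *Cr1l* did not pass, with values from −0.06 to 0.35. Cells other than macrophages also express genes of this list, among those that passed and those that did not. *Itgax*, for one, stands in the dendritic cell list. Whether the cells of origin bear on these values was not tested.

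Ligands of the *Csf1r* product and myeloid transcription factors gave 5 lower, 1 higher and 6 not passed of 12 in males. Of all tested genes, 11% were called lower and 9.68% higher. *Irf8* (−1.74, adjusted p = 2.79e-08) and *Runx1* (−1.82, adjusted p = 2.00e-07), both regulators of myeloid development, and *Zeb2* (−0.68, adjusted p = 2.80e-05) fell, as did *Csf1* itself (−0.75, adjusted p = 1.01e-04) and *Spi1*, the gene of PU.1 (−1.40, adjusted p = 1.74e-04). *Cebpa*, which hepatocytes express, was higher (0.47, adjusted p = 1.34e-04). *Il34* and *Maf* had log2 fold changes of −0.31 and −0.13. In females 0 genes of these 5 lists passed by edgeR (unadjusted p under 0.05 for 2 of 17, 0 of 9, 2 of 9, 2 of 11 and 2 of 12 in the order given), and the lowest adjusted p was 0.431 for *Runx1* (−0.64). Of all tested genes, 3.14% were lower in females with an unadjusted p under 0.05. The effect differed between the sexes, with the larger fall in males, for 11 of the 17 signalling genes and for 0 of the 9 complement genes. The share of all tested genes was 3.84%, so 0 of 9 is near that share.

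**Figure D5:**
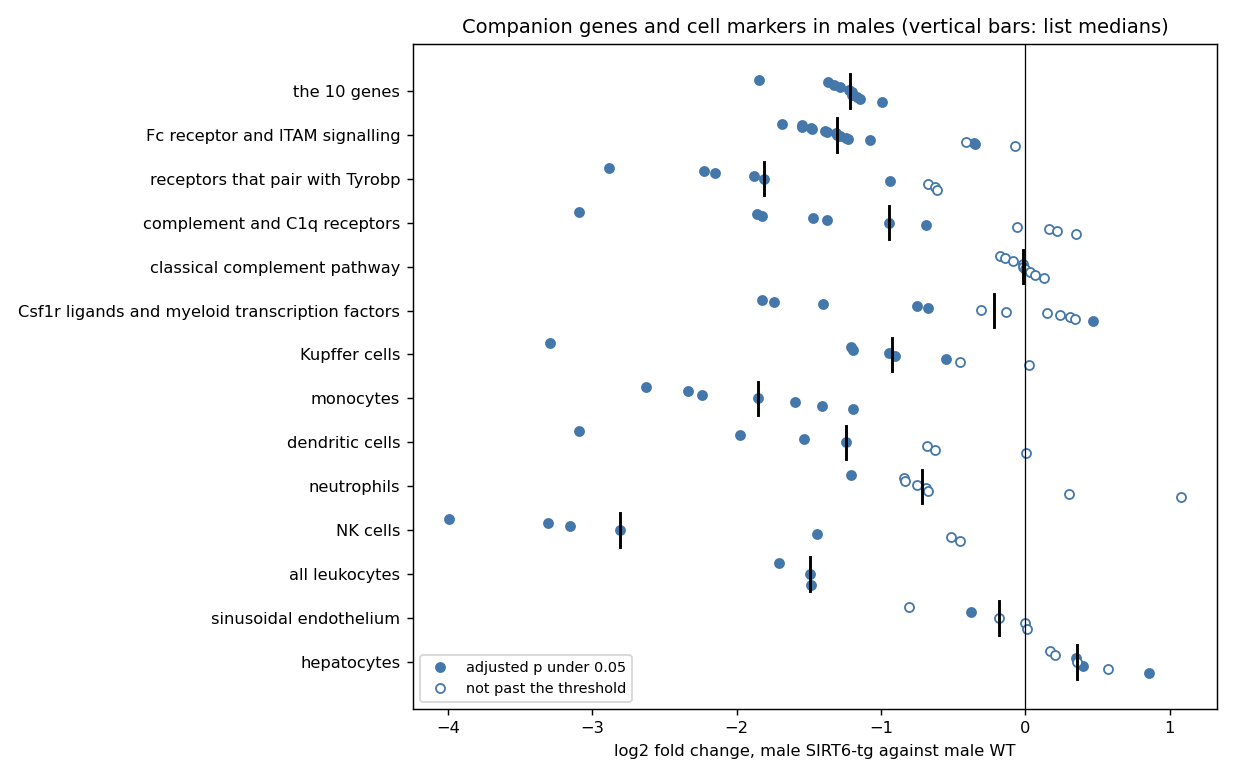
Log2 fold change of male SIRT6-tg against male WT mice for the 10 genes, for the lists of companion genes and for cell markers, with filled points for an adjusted p under 0.05 and vertical bars at the list medians. The list of Fc receptor and ITAM signalling has a median of −1.30, and the classical complement pathway has a median of −0.02 with no filled point.

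Markers of liver cell types were set beside the 10 genes, with the 11% of all tested genes called lower in males as the background. Of 8 Kupffer cell markers 6 were lower in male SIRT6-tg mice, unequally: *Marco* had a log2 fold change of −3.29 (adjusted p = 2.46e-06), *Timd4* of −1.19 (adjusted p = 1.88e-04), *Cd5l* of −1.20 (adjusted p = 0.00104) and *Clec4f* of −0.55 (adjusted p = 0.0444), while *Cd163* (−0.45) and *Slc40a1* (0.02) did not pass. Their summed normalised count spanned 12118 to 32089 in WT males and 12385 to 15671 in transgenic males, the lowest WT value being that of replicate 1. All 7 monocyte markers were lower, led by *Cx3cr1* (−2.24), *Ccr2* (−2.34) and *Ly6c2* (−1.85), and their sums, 656 to 1998 and 198 to 571, did not overlap. No marker of these lists was at 0 in a group. The part of cell numbers in the changes of the 10 genes was not tested.

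Markers of other blood cells were unevenly affected, beside the 11% of all tested genes called lower. Lower in male SIRT6-tg mice were 7 of 7 T cell, 5 of 7 NK cell, 4 of 7 dendritic cell, 4 of 5 B cell, 1 of 8 neutrophil, 1 of 5 mast cell and basophil and 0 of 5 platelet markers, and 3 of 3 genes of all leukocytes. The sum of the 3 leukocyte genes was 2185 to 4256 in male WT and 868 to 1401 in male SIRT6-tg mice, without overlap, and male WT replicate 1 had the second lowest sum of its group. Of the sinusoidal endothelium list 1 of 5 was lower, *Pecam1* (−0.37, adjusted p = 0.0496). Beside 9.68% of all tested genes called higher in males, 3 of 7 hepatocyte markers were higher, *Serpina1c* (0.86), *Fgb* (0.40) and *Alb* (0.35). Of the red blood cell list 1 of 5 was higher, *Alas2* (0.42). In lists this short, counts of 0 or 1 are near the shares of all tested genes. In females 0 markers of any list passed by edgeR, which is near the 0.00463% of all tested genes called lower. An unadjusted p under 0.05 was found for 3 of 7 T cell genes and at most 1 of each other list. Of all tested genes, 3.14% were lower in females at that threshold. Female SIRT6-tg replicate 1 had the highest sum of its group for the Kupffer cell list, 22968, and the highest count for 9 of the 10 genes.

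Among the genes whose log2 level followed the mean standardised level of the 10 most closely over the 28 libraries were *Cd5l* (Pearson's r 0.97), *Pld4* (0.97), *Clec12a* (0.97), and *AB124611* (0.96), followed by *Ctss*, *Slc15a3*, *Arhgdib*, *Pla2g7* and *Slc11a1*, the last at 0.95. *Cd5l* encodes a protein that macrophages secrete, and *Ctss* a lysosomal protease. With group means removed *Cd5l* was again first (0.96), then *Spi1* (0.95), *Pilra*, *Clec12a*, *Pld4*, *Clec4f*, *Lgmn*, *Slc15a3* and *AB124611* (0.92). *Cd5l* fell by 1.20 on the log2 scale in males, close to the median of the 10, whereas *Clec4f*, which tracked them within groups (0.93), fell by 0.55.

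Since the members moved together, the letters before their start sites were searched. RefSeq promoter sequences (GRCm38.p6, 250 bases before the annotated start) were matched for 6 of the 10 genes, *Fcgr1*, *Fcgr3*, *Fcgr4*, *Fcer1g*, *C1qb* and *C1qc*, and not for *Tyrobp*, *C1qa*, *Csf1r* and *Adgre1*. The letters GAGGAA, the core of sites of the macrophage factor PU.1, were searched on both strands and occur in 5 of the 6, all but *Fcer1g*, beside 23.3% of 32851 RefSeq promoters. They start 55 bases before the start of *Fcgr1*, 22 before that of *Fcgr4*, 30 before that of *C1qb* and 193 before that of *C1qc*, and 15 and 6 before the 2 listed starts of *Fcgr3*. TTCNNNGAA, the form bound by STAT factors, occurs in *Fcgr1* (7% of all promoters), and the element of interferon regulatory factors, a pair of GAAA separated by any 2 letters, in *Fcgr4* (3% of all promoters). None of these motifs overlapped another. A match is a string of letters and not a shown binding site. The sequences of *Fcgr1* and *Fcgr4*, the receptors with the largest falls in males, and of *C1qb* are given 5′ to 3′ on the strand of the gene, with matches in capitals, TTCCTC being GAGGAA on the other strand.
*Fcgr1*, chr3:96293970-96294219, minus strand: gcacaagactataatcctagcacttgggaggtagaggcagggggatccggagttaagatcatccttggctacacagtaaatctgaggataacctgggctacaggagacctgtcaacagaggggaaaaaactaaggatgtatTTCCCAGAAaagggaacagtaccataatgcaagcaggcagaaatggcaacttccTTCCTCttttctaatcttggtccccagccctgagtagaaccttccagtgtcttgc
*Fcgr4*, chr1:171018676-171018925, plus strand: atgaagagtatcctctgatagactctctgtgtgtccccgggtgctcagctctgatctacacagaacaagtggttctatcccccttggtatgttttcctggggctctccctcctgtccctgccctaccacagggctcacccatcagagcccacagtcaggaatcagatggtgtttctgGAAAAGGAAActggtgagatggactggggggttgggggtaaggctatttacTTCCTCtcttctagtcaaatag
*C1qb*, chr4:136886201-136886450, minus strand: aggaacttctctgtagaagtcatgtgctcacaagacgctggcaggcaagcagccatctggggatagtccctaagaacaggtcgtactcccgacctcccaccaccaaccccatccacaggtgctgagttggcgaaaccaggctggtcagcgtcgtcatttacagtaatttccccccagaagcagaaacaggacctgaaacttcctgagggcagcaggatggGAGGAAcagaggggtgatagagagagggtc
In *Fcgr4* the capitals mark GAAAAGGAAA and then TTCCTC, and in *Fcgr1* the STAT form TTCCCAGAA and then TTCCTC.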

How the data were processed

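Liver RNA of 28 mice was sequenced single-end from NEBNext Ultra libraries. According to the methods and the labels, the authors aligned reads to mm10 with STAR 2.5.0a, kept uniquely mapped reads, used HTSeq with the Gencode vM12 annotation to count them, and deposited raw counts per gene, without normalization. The strand setting is not given in the sources used here. Samples were grouped from their titles, and 0 columns were left unmapped. Symbols, exon lengths and coordinates came from Gencode vM21 of GRCm38, the same build, with a symbol for 49326 features. Total counts ranged from 18758863 to 35393069. Intervals cover the spread between these mice.

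Genes with a mean of at least 0.5 scaled counts were kept (21583). Scaling was by TMM, and tests were run in edgeR 4.0.16 (quasi-likelihood F-test, robust, R 4.3.3), with 4 groups in 1 fit and no covariates. The authors used DESeq2, which served here as an alternative (1.42.0). Log2 CPM used a prior count of 2. Ratios were compared by exact two-sided permutation of 3432 splits in Python 3.11.15. The steps were tested on simulated data. Libraries of a group differed by more than sampling noise (chi-square per gene at least 12.2).

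The members and gene lists were chosen with earlier results of these data known. The named genes were all 10 members, *Sirt6*, in each list the 3 with the lowest adjusted p in males in each direction and the non-passers where few, and the 10 most similar genes, some of which are not reported here; *C1ra*, *C1s1*, *C3*, *Maf*, *Il34*, *Lrp1*, *Calr*, *Scarf1*, *Cr1l* and *Ptprc* were named besides, after their values were seen or as ratio partners. The cell lists hold genes that other liver cells also express, and *Vsig4*, *Itgax* and *Siglech* stand in 2 lists each. *Ly6g* was not expressed and *Tf* was not matched. Alternatives were RLE, upper-quartile and library-size scaling, other filters, DESeq2, each sex alone, the replicate number as a block, a prior count of 0.5, and each library left out. The 4 further pairs and the overlap counts without 1 library were added after seeing the data.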

Additional observations from a re-analysis of the deposited data

Results flagged for a closer look

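Across 40 groups of 7 values, a single mouse stood apart in 5. Chance alone gives such a mouse in about 1 in 20 independent groups. These groups are not independent, since they hold 10 correlated genes of the same 28 mice, so the 5 cannot be weighed against that rate. The gap to the nearest mouse, as a share of the group's whole range, exceeded Dixon's 95% critical value for 7 values. In female SIRT6-tg mice this was replicate 1 each time, at the high end, with a share of 0.812 for *C1qa* (3000 normalised counts against 1410 in the next mouse), 0.813 for *C1qc* (3080 against 1436), 0.675 for *C1qb* (2810 against 1545) and 0.647 for *Tyrobp* (802 against 433). In male SIRT6-tg mice it was replicate 6 for *Fcgr3*, with a share of 0.617 (255 against 185). The genotype effect differed between the sexes by the interaction term for *Fcgr4* (−1.54), *Fcer1g* (−1.19) and *Fcgr1* (−1.08), in each case with the larger fall in males.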

How the results depend on the processing

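In males all 10 genes passed in every setting and without any 1 library, and in females 0 did. With 1 library left out, between 2 and 6 of the 10 passed for the difference between the sexes (3 with all libraries), between 1 and 8 for male against female WT mice (1), and between 1 and 4 of the 14 male ratios (2), the 4 being reached without male WT replicate 6 or male SIRT6-tg replicate 2. By library size alone 7 of the 10 passed for the difference between the sexes, where 8.51% of all tested genes did (3.84% under TMM), and 7 for male against female WT mice, where 16.9% did (6.65%) and the median of all genes moved from −0.00326 to 0.19. The latter count was 2 with filterByExpr (10.5% of all tested genes) and 4 with DESeq2 (8.63%). The cause of these shifts was not tested. Some log2 ratios close to 0 that passed no test changed sign with 1 library left out: in males *C1qa*/*C1qb* (−0.038 to 0.088) and *Fcgr1*/*Fcer1g* (−0.020 to 0.068), and in females *C1qa*/*C1qb* (−0.10 to 0.000807), *C1qc*/*C1qb* (−0.011 to 0.038), *Fcgr4*/*Fcgr3* (−0.11 to 0.061), *Fcgr1*/*Fcgr3* (−0.052 to 0.10), *Csf1r*/*Ptprc* (−0.029 to 0.050) and *C1qb*/*Ptprc* (−0.19 to 0.00910). Same-numbered mice correlated between −0.28 and 0.27, and over 0.1 in 2 of 7 male, 3 of 7 female and 1 of 7 WT pairs. These correlations were not tested and do not exclude a shared litter or day. With the replicate block the counts of genes were 10, 0, 3 and 1 as before, and 0 male ratios passed, *Fcgr4*/*Fcgr3* and *Csf1r*/*Ptprc* having an adjusted p of 0.0729 by exact sign flips. This says nothing against them, since 7 pairs allow no p below 0.0156, and at least 9 of the 28 tests would have to reach it. Their mean differences, −0.68 and 0.73, are the same under any pairing. *Fcgr4*/*Fcgr3* was negative in 7 of 7 same-numbered pairs, which any pairing gives, since the male ranges did not overlap. *Csf1r*/*Ptprc* was positive in 7 of 7, of which any pairing gives at least 6. These signs therefore add no further evidence. With 7 mice a group, the female confidence intervals still included falls as large as −1.02 for *C1qa*.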
